A study of Mus musculus with 6 samples.

Results

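ChIP-seq peaks of C/EBPα, IRF8 and JUNB that lie on exons, untranslated regions (UTRs) or transcript ends are described here. A peak was a member when its deposited HOMER annotation named an exon, a 5' UTR, a 3' UTR, a transcription termination site (TTS, a window around the end of a transcript) or a non-coding transcript. These classes held 5529 of the 134964 peaks in the 6 peak lists (4.10%): 1609 exon, 484 5' UTR, 1388 3' UTR, 1722 TTS and 326 non-coding peaks. Merging overlapping peaks gave 3013 regions that held a member peak, of 60856 regions in all.

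The study asked how IL-4, a cytokine that activates the transcription factor STAT6 and alternative macrophage polarization, alters gene expression and factor binding in macrophages. Bone marrow cells of WT C57BL/6 mice aged 8 to 12 weeks were differentiated into bone marrow-derived macrophages (BMDMs) for 6 days with supernatant of L929 cells, which supplies the growth factor M-CSF. BMDMs were left untreated (control) or given 20 ng/ml IL-4 for 1 h, and chromatin was double-crosslinked (DSG, then formaldehyde) before immunoprecipitation of C/EBPα, IRF8 or JUNB. Each of the 6 combinations of factor and condition was 1 sample with 1 peak list, so no difference had a replicate check. Intervals in brackets are Wilson 95% intervals of a share, which cover counting error only. The deposited lists give no read counts, so the depth of each library is unknown, and a longer list could come from a deeper library as well as from more binding. The macrophage identity of the cells could not be checked, since the lists hold no expression values. The score of a peak is the number the authors deposited with it, and its unit is not stated in the sources used here.

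C/EBPα is a basic leucine zipper factor that establishes the myeloid lineage. IRF8 binds weakly alone and, together with the ETS factor PU.1, occupies composite elements in macrophages and dendritic cells. JUNB pairs with FOS-family proteins as activator protein 1 (AP-1). Most sites of such factors in macrophages lie in introns and between genes, and sites inside exons share their bases with the coding or untranslated sequence of a transcript.

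The sequences below show motif letters under the highest-scoring or most changed member peaks, to make visible that these letters can lie within coding exons, within UTRs or just past a transcript. They were read from the mm10 genome (RefSeq), each with 8 bases on both sides, and capitals mark the motif. The letters TTGCNNAA (C/EBP), GGAANTGAA (PU.1-IRF), AGGAAGTG (PU.1), GAAANTGAA (ISRE, an interferon-response element) and TGACTCA (AP-1) were searched on both strands within 200 bases around a peak's centre, and matches of GGAANTGAA, GAAANTGAA and AGGAAGTG can overlap. In the control lists, C/EBP letters were held by 34.3% of all C/EBPα peaks, PU.1-IRF letters by 12.2%, PU.1 letters by 15.9% and ISRE letters by 5.62% of all IRF8 peaks, and AP-1 letters by 47.6% of all JUNB peaks. Of 51 distinct named peak regions whose sequence was searched, 27 held letters counted for their factor. The median distance of these letters from the peak's centre was 20.5 bp. For IRF8 any of the PU.1-IRF, ISRE or PU.1 letters counted, and PU.1 letters alone are those of its partner. The share of all IRF8 peaks with any of these letters is not given, so the 27 have no matching background. A match is a description of the letters only.
Tmem150b, C/EBPα, coding exon, chr7:4724509-4724532, plus strand: cacagcgaTTGCAAAActgagacg
Kifc3, C/EBPα, coding exon, chr8:95107475-95107498, plus strand: ggcggtacTTGCGCAAcagctcct
Mmp8, C/EBPα, 3' UTR, chr9:7567533-7567556, minus strand: atttgacaTTGCTCAActctatga
Irak3, C/EBPα, past the transcript end, chr10:120141322-120141345, minus strand: ttactggaTTGCGAAAtcttaata
Psmb8, IRF8, 5' UTR, chr17:34198344-34198368, minus strand: tgcgacaaGGAAGTGAAagcgaaag
Fxr1, IRF8, 3' UTR, chr3:34069184-34069208, minus strand: caaatggaGGAACTGAAagtgcgat
Otor, IRF8, past the transcript end, chr2:143081985-143082009, minus strand: tggaaagaGGAAATGAAagtagaaa
Spen, IRF8, coding exon, chr4:141477872-141477895, minus strand: tgagaaagAGGAAGTGaggaaaaa
Rps6kb1, IRF8, coding exon, chr11:86519963-86519986, minus strand: cattctggAGGAAGTGaaacaccc
6430531B16Rik, JUNB, past the transcript end, chr7:139971636-139971658, plus strand: ctcgcttcTGACTCAcagaggaa
Itgb3, JUNB, coding exon, chr11:104641040-104641062, plus strand: ctgtctgaTGACTCAagcaacgt
Aim1, JUNB, coding exon, chr10:43998679-43998701, minus strand: gcattttcTGACTCAcagccagc
Atg9a, JUNB, intron beside the annotated exon, chr1:75188130-75188152, minus strand: cgcctctcTGACTCAtggcctgc

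Where in a gene a member peak lay depended on its class. A 5' UTR peak mostly sat at the start of its transcript, a median of 181 bp from the nearest transcription start site (TSS). TTS peaks mostly lay downstream of their transcript: the peak centre was past the annotated end for 88.7% of them, at a median of 462 bp. Exon peaks were often wider than the exon that named them, which was the case for 881 of the 1571 exon peaks with a matched gene model, whose exons had a median length of 201 bp. Such a peak also covered bases outside the exon. With RefSeq gene models, 97.0% of the member peaks again fell in one of the 5 classes.

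The deposited gene name is that of the nearest TSS, and it was not always the gene whose transcript the peak touched. Both were the same for 62.7% of member peaks, from 97.5% of 5' UTR and 73.2% of exon peaks to 52.9% of TTS and 46.9% of 3' UTR peaks. Where they differ, the gene that carries the peak is given first below and the name of the nearest TSS after it.

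The 5 classes took a like, small share of every list. C/EBPα had 953 members of 24486 peaks in control BMDMs (3.89%) and 1012 of 24612 after IL-4 (4.11%). IRF8 had 1528 of 37525 (4.07%) and 1837 of 42076 (4.37%). JUNB had 126 of 3940 (3.20%) and 73 of 2325 (3.14%). More members after IL-4 were thus listed for IRF8 and fewer for JUNB, as was the case for the lists as a whole.

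Among the member classes, the IRF8 lists differed most at 5' UTRs and exons. IRF8 5' UTR peaks numbered 145 in control and 231 after IL-4, a ratio of 1.59, and IRF8 exon peaks 446 and 592, a ratio of 1.33. IRF8 promoter peaks, which are no members, numbered 2719 and 3856, a ratio of 1.42, so the difference was not particular to these classes. IRF8 3' UTR peaks (386 and 408) and TTS peaks (460 and 496) came close to their control numbers, and the IRF8 list as a whole had a ratio of 1.12. C/EBPα counts differed little in any class: 249 and 269 exon, 49 and 54 5' UTR, 270 and 276 3' UTR, 332 and 356 TTS, and 53 and 57 non-coding peaks. JUNB counts were lower after IL-4 in every class, with 36 and 17 exon, 4 and 1 5' UTR, 31 and 17 3' UTR, 46 and 32 TTS, and 9 and 6 non-coding peaks. The 5' UTR took 9.49% of IRF8 members in control and 12.6% after IL-4, against 5.14% and 5.34% of C/EBPα members.

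**Figure D1:**
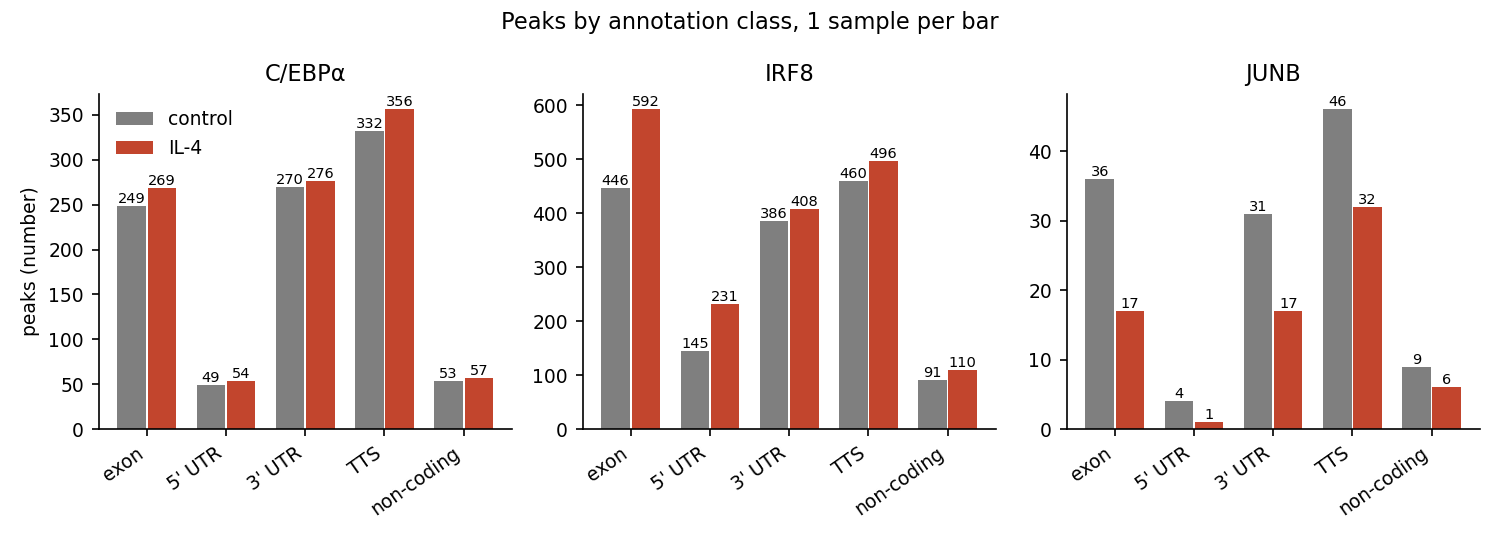
Number of member peaks (y axis) by class (x axis) for C/EBPα, IRF8 and JUNB, with a grey bar for the control list and a red bar for the IL-4 list of each factor. The IRF8 exon bar goes from 446 to 592 and the IRF8 5' UTR bar from 145 to 231, while every JUNB bar is lower after IL-4.

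Scores of member peaks were somewhat lower than those of all peaks, with a spread between classes. The median C/EBPα member score was 9.87 in control and 9.81 after IL-4, beside 11.2 and 11.2 for all C/EBPα peaks. IRF8 members had medians of 8.64 and 8.21, beside 10.3 and 9.61, and JUNB members 7.29 and 5.31, beside 7.88 and 6.21. Within the IRF8 lists, 3' UTR peaks had the highest medians of the classes, at 9.99 and 10.4, and 5' UTR peaks the lowest, at 5.88 and 5.90. IRF8 exon peaks had medians of 8.24 in control and 7.24 after IL-4.

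The highest-scoring member of each class showed how strong such peaks could be. For C/EBPα these were exon 2 of Tmem150b (118.49 in control and 166.38 after IL-4), the 3' UTR of Mmp8, a neutrophil collagenase (nearest TSS Mmp27; 131.67 and 142.96), and the TTS of Irak3, an inhibitor of Toll-like receptor signalling (nearest TSS Helb; 115.79 and 132.32). Its highest 5' UTR peak was at Fam217b (84.4 and 74.7) and its highest non-coding peak at 4833427F10Rik (88.79 and 87.85). The order of conditions differed among these 5 peaks, with 3 higher after IL-4 and 2 higher in control.

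For IRF8, all 5 top peaks had the higher score after IL-4. They were the TTS of Otor (253.37 and 299.22), exon 12 of Spen, which encodes a transcriptional corepressor (nearest TSS Zbtb17; 241.03 and 295.36), the non-coding transcript Gm21057 (190.44 and 257.52) and the 3' UTR of the RNA-binding protein gene Fxr1 (nearest TSS Dnajc19; 207.61 and 245.48). The top 5' UTR peak, at 137.35 and 159.62, lay on Psmb8, an immunoproteasome subunit gene induced by interferons, and no C/EBPα or JUNB peak overlapped it. The PU.1-IRF letters shown above were centred 6 bp from the centre of the Psmb8 peak.

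For JUNB, all 5 top peaks were in the control list. The highest of all was on exon 5 of Pparg, the gene of a nuclear receptor of lipid metabolism and alternative activation, at 98.89 in the control list and 20.11 in the IL-4 list. The TTS of 6430531B16Rik had 29.56 and 9.71, and the non-coding transcript 4933425H06Rik 21.62 and 3.9. The 3' UTR of Fzr1, an activator of the anaphase-promoting complex (nearest TSS 4930404N11Rik), had 16.92 and 6.93, and the 5' UTR of Pam (nearest TSS B230216N24Rik) 10.81 in control and no JUNB peak after IL-4.

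Most C/EBPα and IRF8 members of the control list were found again after IL-4, and most JUNB members were not. Of control members, 75.1% (72.3 to 77.8) of C/EBPα, 76.0% (73.8 to 78.1) of IRF8 and 31.7% (24.3 to 40.3) of JUNB peaks overlapped an IL-4 peak of the same factor by at least 1 bp. The same shares over all peaks were 78.6%, 78.6% and 35.8%. With only peaks of a score of at least 10 in both lists, 3 of 37 JUNB control members (8.11%, 2.80 to 21.3) and 22.7% of all 1322 JUNB control peaks were found again. The median JUNB score was lower in the IL-4 list, so this limit removes a larger share of its peaks. Among C/EBPα classes the share ran from 68.3% of exon peaks to 81.9% of 3' UTR and 83.0% of non-coding peaks.

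Counted the other way, 237 C/EBPα (24.9%, 22.2 to 27.7), 366 IRF8 (24.0%, 21.9 to 26.2) and 86 JUNB members (68.3%, 59.7 to 75.7) were found in control only. The shares of all control peaks of these factors were 21.4%, 21.4% and 64.2%. Found after IL-4 only were 285 C/EBPα members (28.2%, 25.5 to 31.0; all peaks 22.0%), 672 IRF8 members (36.6%, 34.4 to 38.8; all peaks 30.4%) and 34 JUNB members (46.6%; all peaks 39.2%). For C/EBPα and IRF8 the members' interval lay above the share of all peaks, for control-only as well as for IL-4-only peaks.

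The IL-4-only share of IRF8 members was highest at 5' UTRs. There 131 of 231 peaks (56.7%, 50.3 to 62.9) had no IRF8 peak in control, followed by 251 exon peaks (42.4%, 38.5 to 46.4). TTS peaks had 146 (29.4%), non-coding 39 (35.5%) and 3' UTR 105 (25.7%), and the last was near the shares of intron (28.6%) and intergenic (27.9%) peaks. Promoter peaks, which are no members, had 48.0%. The non-coding interval (27.1 to 44.7) overlapped those of the exon and TTS classes. The control-only share of IRF8 members was also highest at 5' UTRs, with 44 of 145 peaks (30.3%, 23.4 to 38.3). It was 25.3% at exons and 19.9% at 3' UTRs.

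**Figure D2:**
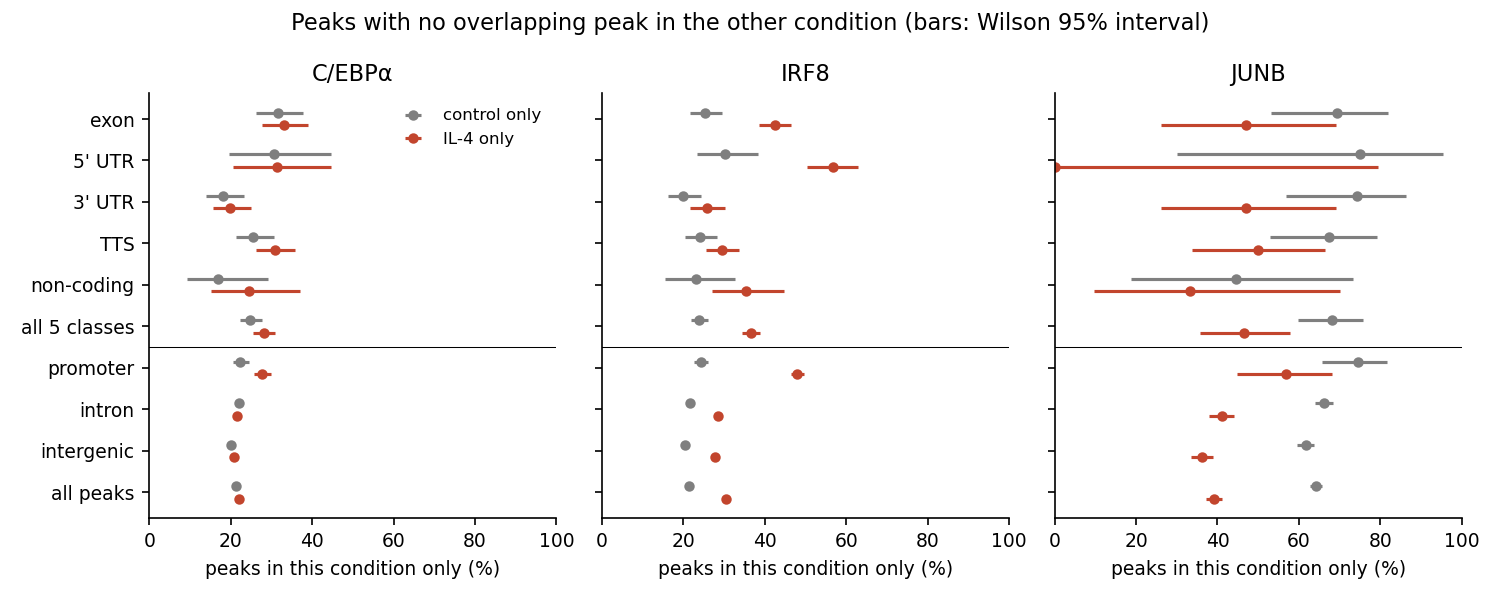
Share of peaks (x axis, percent) with no overlapping peak of the same factor in the other condition, by class (y axis), for the control list (grey) and the IL-4 list (red); points are shares and bars Wilson 95% intervals. For IRF8 the red points of the 5' UTR (56.7%) and exon (42.4%) classes lie to the right of the 3' UTR class (25.7%), and the promoter class (48.0%) lies between them. The grey IRF8 points of the 5' UTR (30.3%), exon (25.3%) and 3' UTR (19.9%) classes have the same order.

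Distance from the TSS separated the IRF8 members in the same way. After IL-4, 458 IRF8 members (24.9%) lay within 1000 bp of a TSS, against 265 (17.3%) in control. Of those 458, 58.7% (54.2 to 63.2) were IL-4-only, and of the members farther away 29.2% (26.9 to 31.7). Exon peaks alone showed the same split, with 65.2% of 164 peaks within 1000 bp and 33.6% beyond. First exons accounted for 12.6% of the IRF8 exon peaks in control and 22.6% after IL-4. Over all IRF8 peaks of the IL-4 list the shares were 48.1% and 27.8%. The control list had the same order: 33.6% (28.2 to 39.5) of members within 1000 bp were control-only, and 21.9% (19.7 to 24.3) of those beyond. For exon peaks these control-only shares were 41.5% and 21.7%, and over all IRF8 control peaks 25.4% and 21.0%.

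Peaks found in 1 condition only were mostly low. Their median score was 4.99 for the IL-4-only and 4.82 for the control-only IRF8 members, and 13.1 and 11.8 for those found in both. With IRF8 control peaks split by score, members and all peaks had near-equal shares found again: in the lowest of 4 equal bins of IRF8 scores 48.3% of members and 49.1% of all peaks, and in the highest bin 100% and 99.9%. The lowest bin of the C/EBPα IL-4 list differed more, with 40.3% of members (35.1 to 45.8) and 49.1% of all peaks also found in control. JUNB bins held at most 35 members each, and the third and the fourth control bin had 23.3% (11.8 to 40.9) and 55.6% (37.3 to 72.4) of members found again, beside 35.03% and 65.6% of all peaks. Members within 1000 bp of a TSS had a median IRF8 score of 5.82 after IL-4, and members beyond had 9.43. The part of the score in the split by distance was not tested.

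The strongest IL-4-only members carried scores well above those medians. For IRF8 they were the TTS of Dmrtb1 (50.73), the 3' UTR of Pcbp2, an RNA-binding protein gene (nearest TSS Map3k12; 50.26), and exon 18 of Smc1b, a meiotic cohesin gene (38.71). For C/EBPα they were the 3' UTR of Rimkla (27.35), the TTS of Dcps, a scavenger decapping enzyme (nearest TSS St3gal4; 22.6), and the 3' UTR of the cadherin gene Cdh3 (nearest TSS 1110028F18Rik; 18.16). At the Dcps end IRF8 had peaks in both conditions (8.57 and 12.5), and at Rimkla and Cdh3 no other factor had a peak. JUNB had IL-4-only members at the non-coding transcript Gm19434 (10.39), on exon 25 of the kinase gene Mast1 (nearest TSS Dnase2a; 10.15) and at the TTS of the chemokine gene Ccl7 (8.46). The Ccl7 end also held a C/EBPα peak after IL-4 only (11.87).

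The strongest control-only members were of the same order for C/EBPα and lower for IRF8. C/EBPα had the non-coding transcript C230091D08Rik (22.63), the 3' UTR of the small GTPase gene Diras2 (22.11) and the 3' UTR of Kmo, an enzyme of tryptophan breakdown (19.71). The Kmo region held IRF8 peaks in both conditions (72.1 and 60.52). IRF8 had the TTS of Saysd1 (16.22), exon 12 of the coatomer gene Copg2 (15.02) and the TTS of Tceanc (13.7). JUNB had the TTS of Mir3092 (21.68), exon 6 of Atg9a, a membrane protein of autophagy (21.04), and the TTS of the thioesterase gene Acot13 (17.91). On Atg9a exon 6 the other factors were lower after IL-4 too, with C/EBPα at 72.48 and 57.18 and IRF8 at 25.48 and 6.35.

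Scores of the same peak in both conditions could be set side by side for 758 C/EBPα, 1297 IRF8 and 42 JUNB member pairs. C/EBPα pairs had a median log2 ratio of the IL-4 to the control score of 0.02 (a ratio of 1.02), IRF8 pairs of 0.11 (1.08) and JUNB pairs of -0.73 (0.602), beside -0.54 (0.685) over all JUNB pairs. With each score divided by the median of its list, the IRF8 median was 0.22. The median score of the whole JUNB list was 7.88 in control and 6.21 after IL-4. The same division thus also raises the JUNB median, towards equal scores. Among the classes, IRF8 5' UTR pairs stood above the members as a whole, with a median of 0.33 (1.25) over 132 pairs, 68.2% of them higher after IL-4. IRF8 promoter pairs had 0.28 and the 79 non-coding pairs 0.35, while the TTS pairs had 0.10, the 3' UTR pairs 0.08 and the exon pairs 0.05.

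Most C/EBPα and IRF8 pairs differed by less than 2-fold. For C/EBPα 61 pairs (8.05%) were at least 2-fold higher after IL-4 and 44 (5.81%) at least 2-fold lower, near the 7.72% and 6.56% of all C/EBPα pairs. For IRF8 149 (11.5%) were higher and 105 (8.10%) lower, near 11.3% and 7.96% of all pairs. For JUNB 3 of 42 (7.14%, 2.46 to 19.0) were higher and 13 (31.0%) lower, beside 2.99% and 29.9% of all pairs. Among IRF8 5' UTR pairs 26 (19.7%, 13.8 to 27.3) were at least 2-fold higher.

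**Figure D3:**
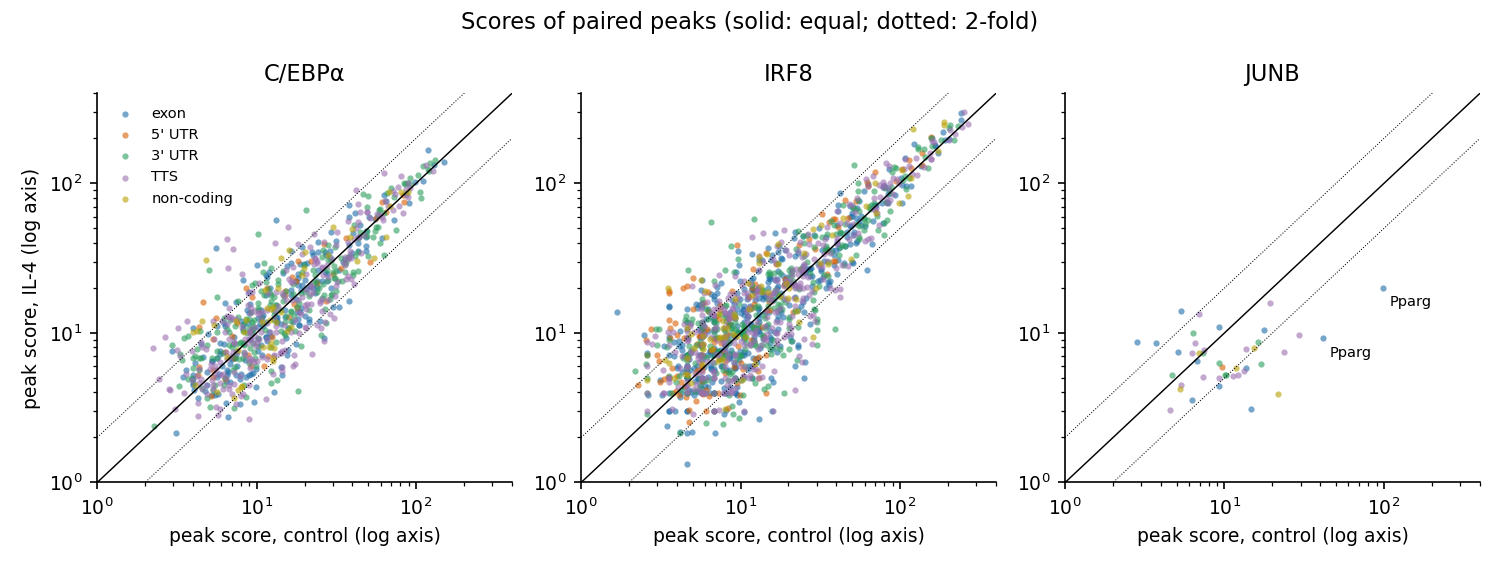
Score after IL-4 (y axis, log scale) against score in control (x axis, log scale) for every pair of overlapping peaks of which at least 1 is a member, in a panel for each of C/EBPα, IRF8 and JUNB; colours mark the class, the solid line equal scores and the dotted lines a 2-fold difference. The 42 JUNB pairs lie mostly below the line (median ratio 0.602), and the C/EBPα and IRF8 pairs spread around it (1.02 and 1.08).

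The largest differences in pairs were at peaks with a low score in 1 condition. The IRF8 peak on the last exon of Pik3r2, a subunit gene of phosphoinositide 3-kinase, had 6.57 in control and 55.37 after IL-4. Its nearest TSS was that of Ifi30, a lysosomal thiol reductase used in antigen processing, and neither C/EBPα nor JUNB had a peak there. IRF8 also had 3.49 and 20.12 at the start of the non-coding transcript 5730577I03Rik, and 4.7 and 26.45 on the 3' UTR of Ankrd44 (nearest TSS Pgap1). The IRF8 peaks furthest the other way were the TTS of Fam20a (nearest TSS Prkar1a; 21.97 and 4.14), exon 5 of Rps6kb1, the S6 kinase gene (25.15 and 4.99), and exon 6 of Atg9a.

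C/EBPα scores differed most, upwards, on exon 3 of Zfp622 (5.54 and 37.02), at the TTS of the kinase gene Nek1 (nearest TSS Sh3rf1; 6.49 and 42.52) and on the non-coding transcript 4930546C10Rik (4.79 and 30.66). At the last of these, IRF8 was also higher after IL-4 (121.49 and 232.47). The C/EBPα peaks furthest downwards were the TTS of Mir686 (22.25 and 7.27), the TTS of Orm3 (nearest TSS Orm2; 26.37 and 8.9) and exon 8 of the kinesin gene Kifc3 (26.5 and 9.32). None of these 3 regions held an IRF8 or JUNB peak. Orm genes, which encode acute-phase proteins, lie side by side as near copies. Reads could be shared between them, which was not tested.

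JUNB had the higher score after IL-4 in 13 of the 42 pairs. Among pairs whose higher score was at least 10, the most raised were exon 2 of Aim1 (5.34 and 14.12), the TTS of the immediate early gene Ier3 (nearest TSS Flot1; 6.87 and 13.43) and the last exon of the aldo-keto reductase gene Akr1b8 (9.27 and 10.9). Beside Pparg exon 5, the JUNB pairs furthest downwards were 4933425H06Rik and exon 8 of the integrin gene Itgb3 (14.73 and 3.12), where IRF8 had 11.73 and 5.98. On Aim1, Akr1b8 and Itgb3 the AP-1 letters lay within the exon itself.

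The class of a peak moved between conditions for some pairs. Both peaks of a pair had the same class for 86.3% of C/EBPα, 75.6% of IRF8 and 78.6% of JUNB member pairs. For IRF8 84 pairs went from exon to intron and 85 from intron to exon, so that these moves were balanced.

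Member peaks overlapped another factor less often than peaks in general. In control 483 C/EBPα members (50.7%) overlapped an IRF8 peak, beside 58.1% of all C/EBPα peaks, and 81 (8.50%) a JUNB peak, beside 11.6%. After IL-4 the counts were 538 (53.2%; all 60.6%) and 51 (5.04%; all 6.93%). IRF8 members overlapped C/EBPα in 491 cases (32.1%; all 37.9%) in control and 552 (30.05%; all 35.3%) after IL-4, and JUNB in 90 (5.89%; all 8.49%) and 45 (2.45%; all 4.56%). JUNB members overlapped C/EBPα in 82 cases (65.1%; all 72.3%) and 51 (69.9%; all 73.4%), and IRF8 in 94 (74.6%; all 80.8%) and 48 (65.8%, 54.3 to 75.6; all 82.6%). The member share was the lower in all 12 comparisons of factor, partner and condition, with the largest gap for JUNB with IRF8 after IL-4. Some JUNB intervals held the share of all JUNB peaks and so do not separate the groups. These were the intervals with C/EBPα (56.4 to 72.8 in control, 58.6 to 79.2 after IL-4) and with IRF8 in control (66.4 to 81.4).

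Co-binding differed by class. A C/EBPα peak overlapped 13.1% of IRF8 5' UTR peaks in control and 12.1% after IL-4, against 40.9% and 38.5% of IRF8 3' UTR peaks. No IRF8 5' UTR peak overlapped a JUNB peak (0 of 145 and 0 of 231). C/EBPα 5' UTR peaks overlapped IRF8 in 36.7% and 42.6%, and C/EBPα 3' UTR peaks in 59.3% and 56.9%. Members that overlapped another factor had higher median scores in control: C/EBPα members with an IRF8 peak had a median of 12.8 in control, and those without had 8.31. In the lowest of 4 bins of C/EBPα control scores 37.4% of members and 45.3% of all peaks overlapped IRF8, and in the highest bin 70.6% and 78.4%. In the second bin of IRF8 control scores the shares with C/EBPα were near-equal, at 31.7% and 31.8%. The other IRF8 control bins had the lower share for members, and JUNB bins of the IL-4 list went either way. Some classes did not have the lower overlap of members as a whole, among them the IRF8 3' UTR peaks with C/EBPα, the C/EBPα 3' UTR peaks with IRF8 in control, and JUNB exon peaks with IRF8 in control (31 of 36, 86.1%, 71.3 to 93.9).

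**Figure D4:**
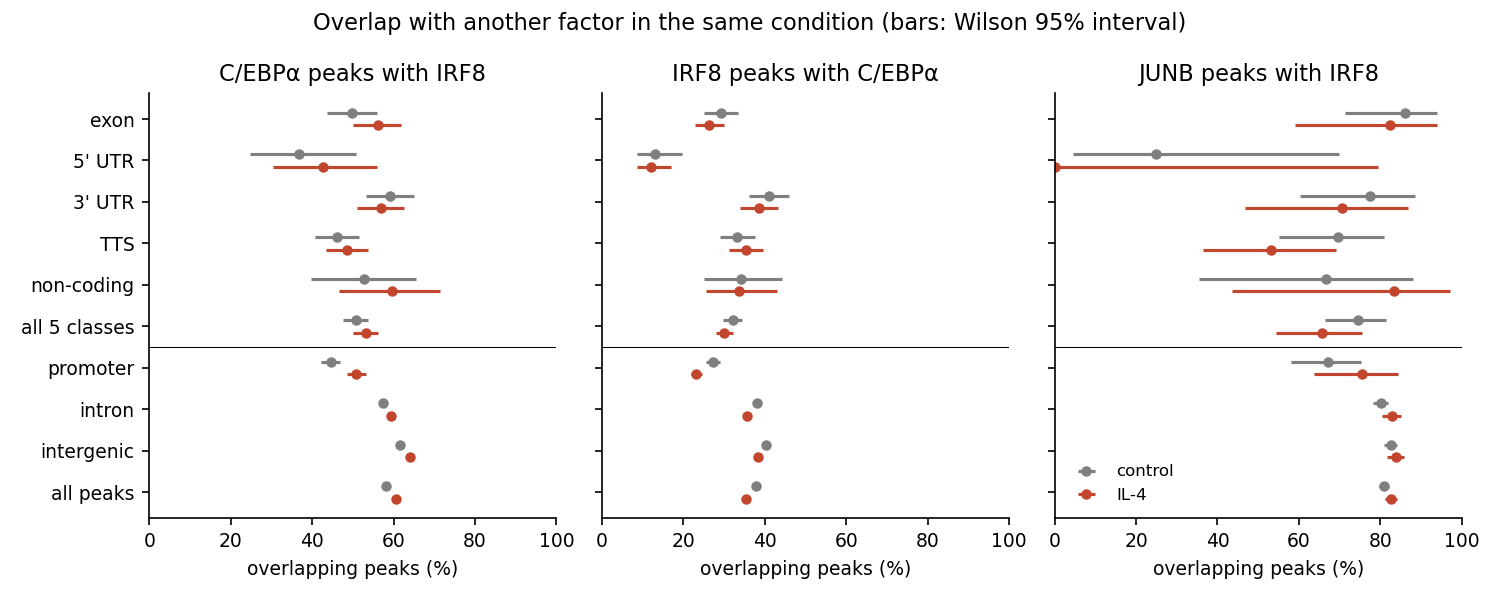
Share of peaks (x axis, percent) that overlap a peak of another factor in the same condition, by class (y axis), for C/EBPα with IRF8, IRF8 with C/EBPα and JUNB with IRF8, in control (grey) and IL-4 (red); bars are Wilson 95% intervals. IRF8 5' UTR peaks show the lowest overlap with C/EBPα (13.1% and 12.1%), and the members as a whole lie to the left of all peaks.

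C/EBPα and IRF8 were both gained or lost at some regions. Among 75 member regions where both factors were found in 1 condition only, both were gained in 32 and both lost in 12, so that 44 (58.7%, 47.4 to 69.1) had the same direction, beside 68.4% of 1640 such regions overall. The members' interval holds both an even split of directions and the share of all regions, so it does not separate them.

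All 3 factors met at 125 of the 3013 member regions, and 30 regions (1.00%) had a peak in all 6 lists, beside 1.63% of all regions. At these 30 regions C/EBPα had a median log2 ratio of -0.04, IRF8 of 0.01 and JUNB of -0.65, with JUNB higher after IL-4 at 8 of them. The same medians over the 993 regions of the genome with all 6 peaks were 0.07, 0.10 and -0.56. Single regions spread widely for each factor, from -1.49 to 0.92 for C/EBPα, -0.62 to 1.72 for IRF8 and -2.47 to 1.63 for JUNB.

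The region with the highest lowest score of the 30 was the TTS beside Gys1 and Ftl1, the gene of ferritin light chain. C/EBPα had 35.56 in control and 29.67 after IL-4 there, IRF8 158.55 and 191.1, and JUNB 19.37 and 15.78. Exon 3 of Kctd13 (nearest TSS Asphd1) had C/EBPα at 21.22 and 11.35, IRF8 at 82.74 and 75.72, and JUNB at 17.71 and 10.51. Both regions kept the order of the factors, with IRF8 highest in both conditions.

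At Pvt1, a long non-coding RNA gene near Myc (nearest TSS H2afy3), C/EBPα had 53.53 and 64.7, IRF8 16.65 and 21.6, and JUNB 25.84 and 8.96. Exon 17 of Heatr1, a ribosome biogenesis gene, had 48.85 and 48.28, 69.99 and 71.04, and 13.8 and 8.28. The TTS of Irak3 had JUNB at 13.58 and 7.8, and IRF8 at 26.64 and 23.86. In these 5 regions JUNB was lower after IL-4 each time, while C/EBPα and IRF8 went either way.

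Pparg held the most concentrated set of exon peaks. JUNB peaks covered exon 3 (chr6:115439840-115440067 in mm10, score 41.64), exon 4 (chr6:115441492-115441661, 17.27) and exon 5 (chr6:115450944-115451082, 98.89) in control BMDMs. After IL-4 JUNB had 9.28 on exon 3, no peak on exon 4 and 20.11 on exon 5. IRF8 had 11.12, 6.29 and 34.61 on the same exons in control, and 7.3, 10.25 and 19.99 after IL-4, with 7.26 on exon 6 then too, where the control peak (8.52) was of the intron class. C/EBPα had no peak on exons 3 to 5 in either condition.

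The JUNB control peaks lay over the exons but were wider than them. They covered 77.6% of exon 3 and 100% of exons 4 and 5, and were centred 82.5, 49.5 and 14 bp from the centres of these exons. The peak on exon 5 spanned 317 bp, and the exon 139 bp. The remaining JUNB peak of each list within the gene was intronic and low (5.46 and 7.07). IRF8 had its highest peak of the gene in that same intron, at 129.96 and 140.8, and C/EBPα had 34.78 and 35.88 there. The JUNB exon 5 peak held none of the AP-1 letters in the 200 bp around its centre. The lists hold no reads, so whether the fragments under these exons came from chromosomal or from spliced sequence was not tested, and the scores of 98.89 and 20.11 carry that limit.

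**Figure D5:**
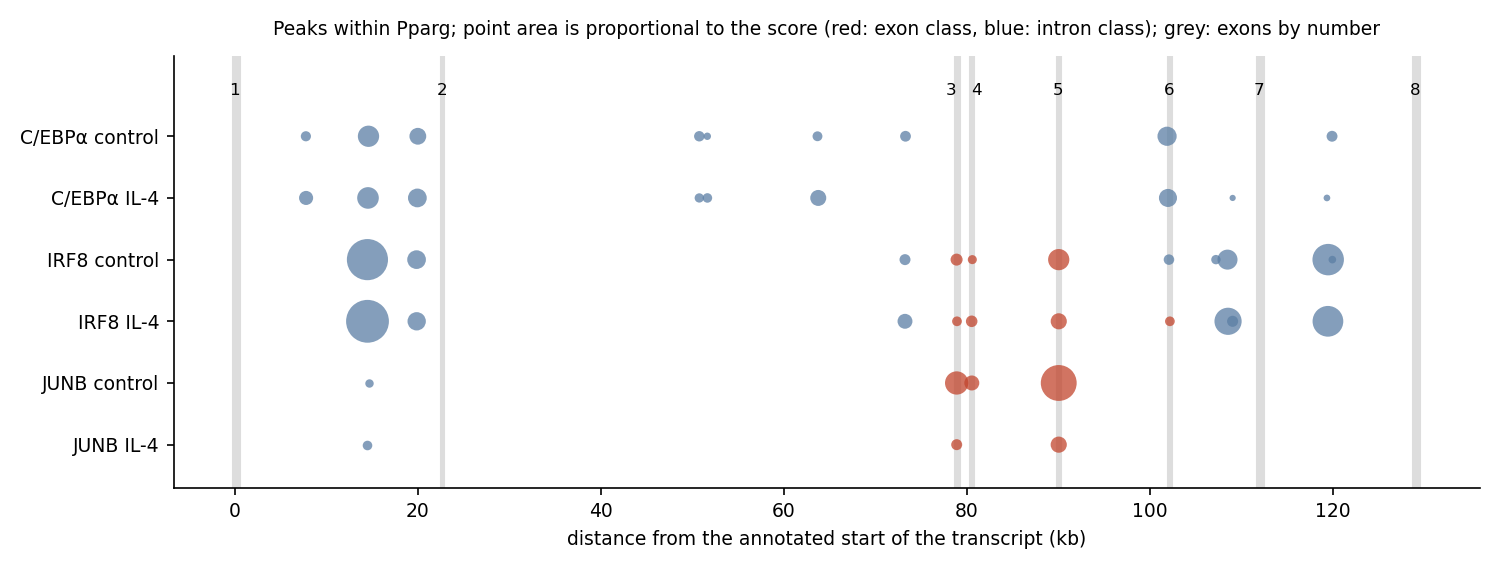
Peaks within Pparg by distance from the annotated transcript start (x axis, kb) in the 6 lists (y axis); point area is proportional to the score, red points are exon-class and blue points intron-class peaks, and grey bands are the exons by number. JUNB points of the control list sit on exons 3, 4 and 5 (41.64, 17.27 and 98.89), IRF8 points sit on the same exons, and no C/EBPα point does.

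Peaks on 3 or more exons of a gene were rare elsewhere. Pparg was the only such gene in the JUNB control list, and no C/EBPα control gene had them. IRF8 had Pparg and Nckap1l, a haematopoietic actin regulator, in control, and Pparg, Lrp4 and Stk11ip after IL-4. After IL-4 C/EBPα had 4 exon peaks on Fn1, which encodes fibronectin, with low scores of 2.4 to 7.54 and none in control. The Fn1 peaks covered 75.4% to 100% of their exons. These genes were picked out after their values were seen.

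JUNB peaks wider than 500 bp took a larger share of members than of other JUNB peaks. In control 5 of 126 JUNB members were that wide (3.97%, 1.71 to 8.95), against 33 of 3814 other JUNB peaks (0.865%). They were at Ftl1 (1331 bp), Fzr1 (942 bp), Tmsb4x, the thymosin β4 gene (900 bp), Best1 beside the ferritin heavy chain gene Fth1 (744 bp), and Acot13 (728 bp). After IL-4 Ftl1 (818 bp) and Ier3 beside Flot1 (537 bp) were that wide. In both lists 0 of these wide peaks held AP-1 letters in the 200 bp around the centre, and the rest of each peak was not searched. Ferritin and thymosin genes have near-identical processed copies in the genome, and how reads that map to several places were counted is not given in the sources used here.

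Base composition set the 5' UTR class apart from the other member classes, and promoter peaks, which are no members, went the same way. Within the 200 bp around the peak centre IRF8 5' UTR peaks had a median GC content of 59.5% in control and 62.5% after IL-4, with 12 and 16 CpG dinucleotides, beside 45.5% and 46.0% and 2 CpG in all IRF8 peaks. IRF8 promoter peaks had a median GC content of 52.0% in control and 55.0% after IL-4, with 7 and 9 CpG. PU.1-IRF letters were in 3.45% of the IRF8 5' UTR peaks in control and 5.19% after IL-4. They were in 7.02% and 5.73% of promoter peaks, 13.2% and 11.8% of 3' UTR peaks and 12.2% and 11.1% of all. IRF8 members found after IL-4 only had a GC content of 54.5% and PU.1-IRF letters in 2.98%, and those in both conditions 48.0% and 13.1%. Over all IRF8 peaks of the IL-4 list, PU.1-IRF letters were in 5.74% of IL-4-only and 13.5% of shared peaks. In the control list they were in 5.19% of control-only and 13.4% of shared members. IRF8 members within 1000 bp of a TSS had a GC content of 63.0% after IL-4, and those beyond 47.5%. The GC content thus moved with the IL-4-only share by class and by distance, and its part in that share was not tested.

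The letters of their own factor were also counted in C/EBPα and JUNB members. C/EBP letters were in 34.3% of C/EBPα control members, the share of all C/EBPα control peaks. After IL-4 they were in 37.3% of C/EBPα members shared with control and 18.6% of the IL-4-only members. The same shares over all C/EBPα peaks of the IL-4 list were 36.04% and 23.8%, so the order was not particular to members. AP-1 letters were in 41.3% of JUNB members in control and 37.0% after IL-4 (26.8 to 48.5), and the 95% intervals of both held the 47.6% and 43.0% of all JUNB peaks. They were in 48.7% of shared and 23.5% of IL-4-only members of the IL-4 list, beside 49.8% and 32.3% over all JUNB peaks of that list. Of 88 exon-class C/EBPα control peaks with C/EBP letters, the letters of 79 (89.8%) lay within a coding exon.

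By deposited gene name, 2608 of the 14930 names with any peak (17.5%) had a member peak. Of these, 1874 had member peaks of 1 factor, 640 of 2 and 94 of 3. Gene lists differed in peaks per gene name, from 6.85 for ribosomal and translation genes to 68 for the IL-4-activated genes beside 9.04 over all names, so the share of a list's peaks that were members is also given, beside the 4.10% of all peaks. Peaks of the 6 lists were pooled for this share, so a site can count once per list and the intervals are too narrow. Receptor genes of macrophages had member peaks at 23 of 57 names and 6.26% (5.02 to 7.79) of their peaks. Transcription factor genes had 22 of 51 (2.94%, 2.21 to 3.90). Inflammatory signalling and feedback genes had 16 of 45 (3.50%), lysosome and phagocytosis genes 11 of 32 (3.97%), and actin and adhesion genes 12 of 36 (3.73%). Alternative activation genes had 7 of 27 (4.46%), lipid handling genes 4 of 23 (2.05%), and ribosomal and translation genes 2 of 20 (1.46%). Of the genes the study described by their IL-4 response on its own samples, the repressed ones had 5 of 12 (4.47%) and the activated ones 0 of 3, with 0 of their 204 peaks.

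In the receptor list, exon 5 of Msr1, the scavenger receptor A gene, had IRF8 at 192.65 in control and 195.72 after IL-4 and C/EBPα at 44.86 and 52.8. The TTS of Tlr4, the lipopolysaccharide receptor gene, had IRF8 at 246.61 and 239.2, C/EBPα at 6.79 and 7.01 and JUNB at 13.24 and 5.58. At the TTS of P2rx7, an ATP-gated channel gene (nearest TSS P2rx4), IRF8 had 98.66 and 100.78 and C/EBPα 9.26 and 14.74. IRF8 scores at these ends and exons were thus near-equal in both conditions.

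Among Fc receptor and lectin genes, the TTS of Fcgr2b, the inhibitory IgG receptor gene, had C/EBPα at 18.19 and 39.07, IRF8 at 28.81 and 31.27, and JUNB at 3.22 after IL-4 only. Fcgr3, an activating IgG receptor gene, had IRF8 at 15.65 and 10.72, with C/EBPα (4.62) and JUNB (5.39) in control only. Clec4a1 had C/EBPα at 26.61 and 40.41 and IRF8 at 78.32 and 102.04. On exon 4 of Clec4n, the dectin-2 gene, C/EBPα had 14.71 and 25.3. The 2 Fc receptor genes differed in which condition had the C/EBPα and JUNB peaks.

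Other receptor genes carried members in differing parts of the gene. The 3' UTR of Cx3cr1, the fractalkine receptor gene, had C/EBPα at 75.48 and 48.94, with JUNB (10.49) and IRF8 (4.77) in control only. Cd300a, an inhibitory receptor gene, had members at both ends, with IRF8 at 15.42 on its 5' UTR after IL-4, where the control peak (7.43) was of the promoter class, and JUNB at 9.38 on its 3' UTR in control only. Itgax, which encodes CD11c, had IRF8 at 28.26 on exon 8 in control and at 24.14 in the adjoining intron class after IL-4, and JUNB at 4.65 in control only. The TTS of Csf1r, the M-CSF receptor gene, had C/EBPα at 13.13 and 10.36 in control and 13.89 after IL-4, and the TTS of the cytokine receptor gene Csf2rb had 5.34 and 12.07. At Pilra, a paired immunoglobulin-like receptor gene, C/EBPα had 4.43 at the TTS in control only, and IRF8 had 4.71 and 6.74 at the neighbouring end of Zcwpw1.

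In the transcription factor list, the TTS of Cebpd, a C/EBP family gene, had C/EBPα at 43.83 and 43.88, IRF8 at 71.11 and 68.98, and JUNB at 5.37 in control only. The TTS of Rela, an NF-κB subunit gene, had C/EBPα at 44.83 and 64.45 and IRF8 at 6.45 in control. The 3' UTR of Irf5 had IRF8 at 51.11 and 69.7, and the TTS of Cdhr5 beside Irf7 had C/EBPα at 6.63 and 27.21 and IRF8 at 25 and 27.85. At Klf6, a Krüppel-like factor gene, the TTS had C/EBPα at 18.9 and 13.45 and IRF8 at 7.99 after IL-4. JUNB had a peak on the 5' UTR of Jund, an AP-1 partner gene, in control only (9.91).

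Genes of inflammatory signalling included Nfkbia, the IκBα gene, whose TTS had C/EBPα at 77.45 and 94.43, IRF8 at 25.01 and 25.63, and JUNB at 6.83 after IL-4 only. The end of the chemokine gene Ccl2 had peaks after IL-4 only, with C/EBPα at 5.47 and 4.26 in 2 adjoining peaks and JUNB at 5.31. Like Ccl7 beside it on chromosome 11, the end of Ccl2 thus had C/EBPα and JUNB peaks in the IL-4 list alone. The TTS of Ccl9 had IRF8 at 16.74 and 19.49 and C/EBPα at 3.11 after IL-4 only. Zfp36l2, an mRNA decay factor gene, had C/EBPα at 12.12 on exon 1 in control only.

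In the lysosome and phagocytosis list, the TTS of Cybb, the catalytic subunit gene of the phagocyte NADPH oxidase, had IRF8 at 11.89 and 43.92 and C/EBPα at 8.07 after IL-4 only. At the TTS of Arnt beside the cathepsin gene Ctsk, IRF8 had 47.9 and 42.24, C/EBPα 9.13 and 13.7, and JUNB 8.17 in control only. From the group that the study described as repressed by IL-4, the 3' UTR of the lysozyme gene Lyz1 had C/EBPα at 91.24 and 109.07 and IRF8 at 9.8 and 15.54. Exon 3 of the lectin gene Clec4d, of the same group, had C/EBPα at 10.82 and 12.82 and IRF8 at 5.59 in control only. The Lyz1 and Clec4d C/EBPα peaks had a higher score after IL-4 than in control. Ctsh and Gusb, also lysosomal genes, had low members of 2.73 to 6.8, each in 1 condition only.

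Among actin and adhesion genes, the 3' UTR of Arpc5, an Arp2/3 complex gene, had C/EBPα at 55.65 and 48.45 and IRF8 at 34.26 and 38.16. The TTS of Tmsb4x had C/EBPα at 31.41 and 20.53, and JUNB at 23.73 in control and at most 7.48 after IL-4. Exon 18 of Plec, the plectin gene, had IRF8 at 16.54 and 18.39, and Vim, the vimentin gene, had C/EBPα at 3.59 and 5.67 on exon 1. Ccl17, an alternative activation chemokine gene, had C/EBPα at 10.14 and 8.16 on its 3' UTR and IRF8 at 15.78 and 16.38 at its TTS. Fads1, a fatty acid desaturase gene, was the one lipid gene with members of more than 1 factor, on exon 6. There IRF8 had 5.88 in control and C/EBPα 3.36 after IL-4, while the peaks of the other condition (11.08 for IRF8 and 7.82 for C/EBPα) were of the intron class.

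The gene names with the most member regions, 4 each, were Pparg, Atp5o, Neat1 and Rbl2. The regions named for Atp5o lay in Itsn1, an endocytic scaffold gene, where the 3' UTR end had IRF8 at 22.84 and 48.44 and C/EBPα at 12.88 and 13.09, while exon 28 had IRF8 at 38.53 (intron class) and 28.5 and C/EBPα at 26.96 and 25.41 (intron class). Of those named for Rbl2, 3 lay on Chd9, a chromatin remodeller gene, with IRF8 at 52.9 (intron class) and 59.15 on exon 6 and at 15.69 and 33.29 on exon 40. On Neat1, the non-coding RNA of nuclear paraspeckles, JUNB had 7.07 and 7.24 in control only and C/EBPα 9.44 and 3.3 after IL-4 only, while the JUNB TTS peak was in both (4.56 and 3.04). Another 37 gene names had 3 regions, and of these Parp1 and Vil1 had the most member peaks, 11 each. On exon 10 of Parp1, a DNA damage sensor, IRF8 had 241.48 and 265.22, C/EBPα 4.97 and 9.9, and JUNB 9.02 in control only. Of the regions named for Vil1, 1 was the TTS of Vil1 itself (IRF8 at 4.52 in control only) and 2 lay at the end of Usp37, whose 3' UTR had C/EBPα at 27.96 and 22.52, IRF8 at 17.16 and 14.35, and JUNB at 6.37 and 9.93.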

How the data were processed

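The 6 peak lists hold 1 ChIP-seq sample each. The submitters' processing notes name BWA 0.7.10, SAMtools 0.1.19, MACS2 2.0.10, HOMER 4.2 and mm10. Per the methods, MACS2 peaks on the ENCODE blacklist were removed. The deposited values are a score per peak, whose unit is not stated, and the distance to the nearest TSS in bp, both from the authors' HOMER table. The library kit (1 of 2 named) of each sample is not given in the sources used here.

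Python 3.11.15, pandas 2.3.3, numpy 2.4.6, bedtools 2.31.1 and pysam 0.24.0 were used, with scipy 1.17.1, samtools 1.23.1 and matplotlib 3.10.9. Peaks overlapped when they shared at least 1 bp, and pairs of control and IL-4 peaks were made by the largest overlap first. A pair was used when either peak was a member. A region merges overlapping peaks of all lists, and its score for a list is the highest there. Transcripts, exons and sequence came from the RefSeq annotation of mm10. With 1 sample a group no test was run; shares have Wilson 95% intervals. The scripts passed 10 of 10 checks on simulated peaks. No sample or peak was left out of the counts; named peaks on chromosome 18 were left out of the sequences.

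Named peaks were the highest by factor and class; the 3 highest found in 1 condition only; the 3 largest rises and falls among pairs whose higher score was at least 20 (JUNB 10), with 317 C/EBPα, 509 IRF8 and 22 JUNB pairs eligible; the 5 regions with all 6 peaks and the highest lowest score; the 5 gene names with the most regions; and genes of the gene lists with members of 2 or more factors, of which 1 is not reported here. Members and gene lists were chosen with earlier results of these data known. Alternatives were a reciprocal overlap of 50%, a score of at least 10, lists of a factor cut to equal length by rank, autosomes only, classes from RefSeq, scores divided by the list median, and pairs of the same class.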

Additional observations from a re-analysis of the deposited data

Results flagged for a closer look

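The number of member peaks after IL-4 divided by that in control was 1.20 for IRF8 and 0.579 for JUNB, so the 2 factors differed in opposite directions. Over all peaks this ratio was 1.12 and 0.590. The median score ratio at paired member peaks was 1.08 for IRF8 and 0.602 for JUNB, again in opposite directions. Over all pairs it was 1.06 and 0.685. The median score of the whole JUNB list was 7.88 in control and 6.21 after IL-4. Each value rests on 1 library per condition, and the difference between the factors was not tested.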

How the results depend on the processing

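Values were recomputed under up to 7 alternatives. Of 87 recomputed main values 57 moved by less than their counting interval or spread and 30 by more. A change of direction was looked for only in median score ratios whose interval excluded equal scores, and none was found. Shares have no direction to change. At a score of at least 10, members took 3.54% and 3.70% of the C/EBPα control and IL-4 lists, 3.54% and 3.69% of the IRF8 lists and 1.83% of the JUNB IL-4 list; with RefSeq classes they took 4.48% and 4.79% of the C/EBPα and 4.73% and 5.03% of the IRF8 lists. With a reciprocal overlap of 50%, 70.0% of C/EBPα and 66.4% of IRF8 control members were found again; at a score of at least 10, 83.1% of C/EBPα, 79.9% of IRF8 and 8.11% of JUNB control members were; and in lists cut to equal length 72.5% of IRF8 control members were. The median log2 ratio of IRF8 pairs was 0.22 after division by the list median. Any other factor overlapped 52.4% of C/EBPα members in control and 54.2% after IL-4, 33.7% and 30.4% of IRF8 members, and 88.1% and 79.5% of JUNB members. With the reciprocal overlap these shares were 41.0% and 38.3%, then 26.1% and 21.0%, then 59.5% and 53.4%. At a score of at least 10 they were 38.8% and 38.5%, then 26.1% and 26.1%, then 78.4% and 62.5%. In lists cut to equal length the share after IL-4 was 50.6% of C/EBPα and 32.8% of IRF8 members. The stricter settings keep fewer peaks or overlaps by construction. Depth and the background of each library are unknown and limit every count. Leaving out a replicate was not possible with 1 sample per group. No paired analysis was possible because each group is 1 sample.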
